A study of Mus musculus with 94 samples.

Results

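The effect of trisomy on LINE-1 (L1) expression was examined in the cortex of mice that had received no lamivudine. The libraries were chosen by their labels as cortex of trisomic or wild-type mice on plain drinking water, which gave 18 of the 94 libraries of the series, 9 of non-treated trisomic mice (TS-nt) and 9 of non-treated wild-type mice (WT-nt). TS-nt mice were male Ts65Dn, bred from B6EiC4Sn.BLiA-Ts(1716)65Dn/DnJ mothers and hybrid fathers, and WT-nt mice were their male wild-type littermates. The study's methods give an age of 3 to 4 months for all mice. They do not say whether this was the age before the treatment period or when the tissue was taken. Ts65Dn is a model of Down syndrome that carries an additional small chromosome made of the distal part of MMU16 and the centromeric part of MMU17, and the latter holds genes with no counterpart on human chromosome 21. Total RNA was sequenced, and the reads of each single L1 copy, here called an element, had been counted. Every element of the L1 annotation was examined alone, as part of its subfamily (the name before _dup) and as part of an age class.

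L1 elements are retrotransposons that copy themselves through an RNA intermediate with a reverse transcriptase they encode, and most copies in the genome are truncated and unable to move. In the mouse, the L1Md_T, L1Md_A and L1Md_Gf subfamilies hold the copies that are still able to move, the Lx subfamilies spread earlier in rodents, and the L1M subfamilies and HAL1, a relative of L1 without the reverse transcriptase, are relics shared with other mammals. In brain, as in other tissues, many L1 copies lie in introns and exons, where their sequence is also part of the transcript of the host gene.

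The 133 subfamilies were put in 3 classes by name: young for the 6 whose name begins with L1Md, old for the 90 of the other L1M names and HAL1, and other for the remaining 37, mainly Lx, L1_Mus, L1_Mur and L1VL. MusHAL1, X9_LINE, L1PB4 and L1P5 fell in the class other by this rule. Of the 430083 elements, 266549 had a count in at least 1 of the 18 libraries and 1494 had one in all of them. The L1 total of a library ranged from 258311 to 1165192 counts (median 316176), and 2 libraries stood apart by more than 3 median absolute deviations, WT-nt 1 with 1165192 counts and TS-nt 4 with 763030. Both libraries also differed from their groups in composition, and values without 1 or both of them are given for the results they moved most. The table holds L1 elements alone, so that the tissue label could not be compared with cell type markers, and a change in the RNA of a cell type cannot be told apart from a change in the number of its cells.

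The old class held a larger part of L1 counts in TS-nt than in WT-nt mice, and the class other a smaller part. In TS-nt libraries, the old class held at least 37.4%, at the median 40.6% and at most 44.7% of the L1 counts, and in WT-nt libraries 25.4%, 39.3% and 40.9%. The groups overlapped, and the lowest value was that of WT-nt 1. The means were 40.8% ± 1.94 in TS-nt and 37.5% ± 4.75 in WT-nt mice (SD, n = 9 each), a difference of 3.36 percentage points (exact two-sided permutation p = 0.0229, adjusted p = 0.0344 over the 3 classes). The class other held 47.1% ± 1.51 in TS-nt and 49.0% ± 1.82 in WT-nt mice (SD, n = 9 each), a difference of -1.94 points (exact permutation p = 0.0174, adjusted p = 0.0344). Since the 3 shares add up to the whole, they are not independent of each other.

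The young class, which holds the copies able to move, had no larger share in trisomic cortex. It took 11.5%, 11.9% and 13.5% (lowest, median and highest) of L1 counts in TS-nt and 12.0%, 12.3% and 21.7% in WT-nt mice, and the groups overlapped. The means were 12.1% ± 0.571 and 13.5% ± 3.12 (SD, n = 9 each), a difference of -1.41 points (exact permutation p = 0.0732, adjusted p = 0.0732, below the threshold of 0.1 used here). WT-nt 1 alone set much of this difference: its shares were 21.7% young, 52.8% other and 25.4% old. Without it, the differences were -0.384 points for the young class (adjusted p = 0.144, exact permutation), -1.47 for the class other and 1.85 for the old class (adjusted p = 0.0697 for both). Without both WT-nt 1 and TS-nt 4 they were -0.558, -1.72 and 2.28 points (exact permutation, adjusted p = 0.00886, 0.00948 and 0.00886).

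**Figure D1:**
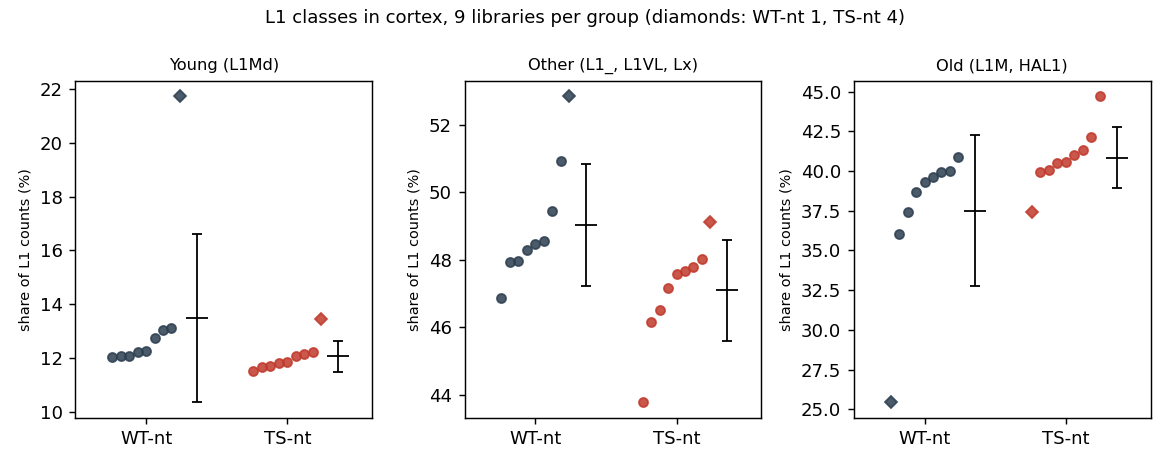
Share of L1 counts (%, vertical axes) held by the young, other and old classes in each of the 18 non-treated cortex libraries; points are libraries, bars the mean and SD of the 9 libraries of a group, and diamonds mark WT-nt 1 and TS-nt 4. The old share averaged 40.8% in TS-nt and 37.5% in WT-nt mice, and WT-nt 1 lies apart from the other WT-nt libraries with 25.4% old and 21.7% young.

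The shift between classes was looked for apart in elements with many and with few counts. The elements that passed the filter for single-element tests held 54.5% ± 8.08 of L1 counts in TS-nt and 48.2% ± 9.31 in WT-nt mice (SD, n = 9 each; difference 6.27 points, or 3.27 without WT-nt 1; exact permutation p = 0.160 and 0.315). Among these elements alone, no class share passed the test, with differences of -1.49 points for young, 1.07 for other and 0.416 for old elements (exact permutation, adjusted p = 0.893 for each). Among the elements that did not pass, the old class held 2.50 points more and the difference of the class other was -1.67 points (exact permutation, adjusted p = 0.0868 and 0.0822), and that of the young class -0.831 (adjusted p = 0.354). Without WT-nt 1 these 3 differences were 0.813, -0.663 and -0.150 points (exact permutation p = 0.132, 0.0589 and 0.699, unadjusted). When the 10 elements with the most counts were left out, the differences were -1.11, -2.28 and 3.39 points (exact permutation, adjusted p = 0.0024, 0.0024 and 0.0021).

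Within the classes, 17 lineages of related subfamilies were compared by their share, and 3 of them (17.6%) passed the test. L1MC and L1MD, L1s of the old class that are found across mammals, took 8.23%, 8.53% and 8.88% (lowest, median and highest) of L1 counts in TS-nt and 3.67%, 7.97% and 8.42% in WT-nt libraries. The groups overlapped, with 4 of 9 WT-nt libraries above the lowest TS-nt library, and the mean share was 8.51% ± 0.206 vs. 7.60% ± 1.497 (SD, n = 9 each; difference 0.906 points, exact permutation, adjusted p = 0.0280 over the 17 lineages).

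The other 2 lineages that passed were lower in TS-nt mice. The L1Md_F lineage (L1Md_F, L1Md_F2 and L1Md_F3), the part of the young class with the most counts, took 7.59%, 7.77% and 8.09% in TS-nt and 7.88%, 8.10% and 11.2% in WT-nt libraries. Its mean share was 7.83% ± 0.166 vs. 8.49% ± 1.04 (SD, n = 9 each; difference -0.667, exact permutation, adjusted p = 0.0315). Lx and Lx2, rodent L1s of the class other, had 5.07% ± 0.196 in TS-nt and 5.59% ± 0.782 in WT-nt mice (SD, n = 9 each; difference -0.519, exact permutation, adjusted p = 0.0315). Without WT-nt 1 the differences were smaller, 0.414 points for L1MC and L1MD, -0.333 for L1Md_F and -0.266 for Lx and Lx2, and all 3 passed again, together with Lx8, Lx9 and Lx10 (difference -0.609, exact permutation, adjusted p = 0.0241). Without TS-nt 1 none of the 17 did (exact permutation, lowest adjusted p = 0.117).

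The lineages with copies able to move did not pass. L1Md_T held 2.55% ± 0.330 of L1 counts in TS-nt and 3.16% ± 1.80 in WT-nt mice (SD, n = 9 each; exact permutation, adjusted p = 0.589). Its WT-nt libraries other than WT-nt 1, at 7.96%, lay between 2.38% and 2.76%. L1Md_A held 1.58% ± 0.138 and 1.70% ± 0.263 (SD, n = 9 each; adjusted p = 0.395, exact permutation), and L1Md_Gf 0.115% ± 0.0223 and 0.124% ± 0.0427 (SD, n = 9 each; adjusted p = 0.612, exact permutation). Of the old lineages, L1ME held 15.1% ± 2.25 and 14.03% ± 1.95, and HAL1 1.39% ± 0.187 and 1.21% ± 0.323 (SD, n = 9 each; exact permutation, adjusted p = 0.426 and 0.305).

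**Figure D2:**
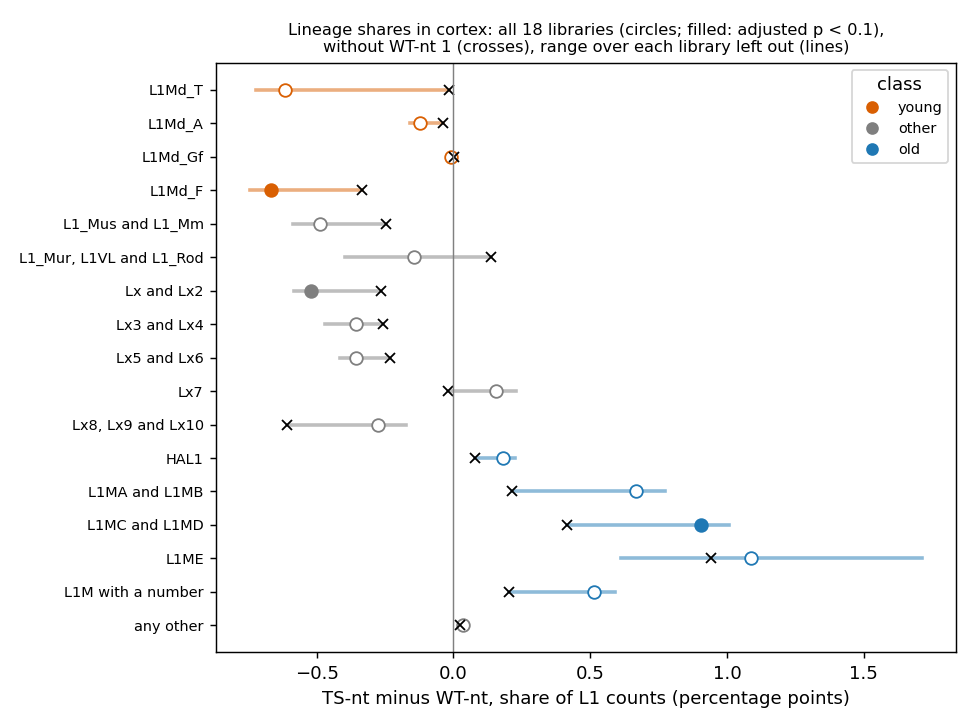
Difference in mean share of L1 counts, TS-nt minus WT-nt (percentage points, horizontal axis), for the 17 lineages, coloured by class. L1MC and L1MD (0.906), L1Md_F (-0.667) and Lx and Lx2 (-0.519) are the 3 that passed the test, while the larger difference of L1ME (1.09) did not.

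Subfamily counts gave the same split by class in a test of each of the 133 subfamilies, but 1 subfamily passed. With edgeR's quasi-likelihood test, 1 of 133 (0.752%) had an adjusted p-value below 0.1 and 31 (23.3%) had an unadjusted p below 0.05, of which 9 (6.77%) were higher and 22 (16.5%) lower in TS-nt mice. The log2 fold changes were above 0 for 58 of the 90 old subfamilies (median 0.061), for 3 of the 37 other ones (median -0.16) and for none of the 6 young ones (median -0.24), with a median of -0.017 over all 133. Without WT-nt 1 the counts above 0 were 62 of 90, 10 of 37 and 2 of 6, with medians of 0.045, -0.058 and -0.023, and 5 of the 133 had an unadjusted p below 0.05. These directions by class were the same with DESeq2 size factors (55, 3 and 0 subfamilies above 0). DESeq2 called 5 old subfamilies higher (3.76% of the 133) and 15 lower (11.3% of the 133), of which 14 were of the class other and 1 was young. Its own filter left 34 of the 133 without an adjusted p.

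**Figure D3:**
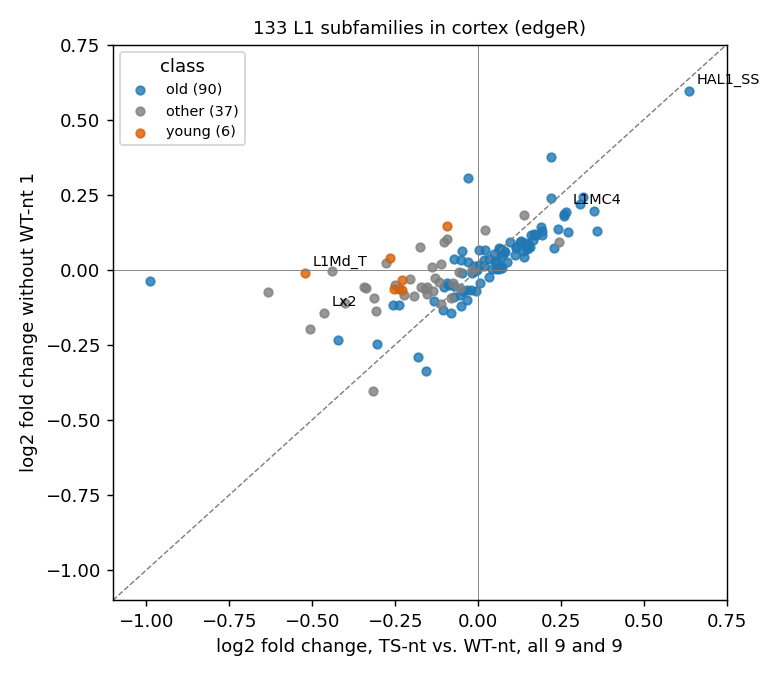
Log2 fold change of each of the 133 subfamilies, TS-nt vs. WT-nt, with all 9 and 9 libraries (horizontal axis) and without WT-nt 1 (vertical axis), coloured by class. The 6 young subfamilies lie between -0.52 and -0.093 with all libraries and between -0.065 and 0.15 without WT-nt 1, and HAL1_SS lies apart with 0.64 and 0.59.

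HAL1_SS, a subfamily of 33 elements in the old class, was the one that passed. Its CPM (counts scaled to the L1 total of a library and with TMM factors) were 394, 621 and 744 (lowest, median and highest) in TS-nt and 277, 364 and 485 in WT-nt libraries. The groups overlapped, and 6 of the 9 TS-nt libraries were above all WT-nt libraries. The mean was 565 ± 131 vs. 364 ± 64.9 CPM (SD, n = 9 each), a log2 fold change of 0.64 (SE 0.17, edgeR adjusted p = 0.0540). Nearly all of it came from 1 copy, HAL1_SS_dup70, which held 95.03% of the subfamily's counts. That element had 106 to 423 counts in TS-nt (median 189) and 86 to 166 in WT-nt libraries (median 124), and in the test of single elements its log2 fold change was 0.60 (SE 0.27, edgeR adjusted p = 0.999). The call of HAL1_SS therefore rested on 1 element. It was lost in 9 of the 18 fits that left out 1 library, among them the fit without WT-nt 1 (log2 fold change 0.59, edgeR adjusted p = 0.188). Over these 18 fits the log2 fold change stayed between 0.58 and 0.70. DESeq2 gave HAL1_SS a log2 fold change of 0.63 and, by its own filter, no adjusted p.

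The other old subfamilies named by their small p were L1MD3, L1MC4, L1M5 and L1ME3, none of which passed (edgeR adjusted p = 0.123 for each). L1MC4 had 10892, 14308 and 16411 CPM in TS-nt and 6843, 12237 and 13643 in WT-nt libraries. All but TS-nt 4 and TS-nt 9 were above every WT-nt library, that is 7 of 9. The mean was 14174 ± 1613 vs. 11792 ± 2004 CPM (SD, n = 9 each), a log2 fold change of 0.27 (SE 0.096), and 0.19 without WT-nt 1. Of its counts, 35.7% were on L1MC4_dup2661, which lies in an exon of the lincRNA gene 2900052N01Rik on the same strand (GRCm38 9:46921094-46921851, plus strand) and by itself had a log2 fold change of 0.50 (SE 0.20, edgeR adjusted p = 0.999). L1MD3 (0.16, SE 0.055), L1M5 (0.13, SE 0.047) and L1ME3 (0.18, SE 0.070) had smaller log2 fold changes. The element with the most counts of L1M5, L1M5_dup9524, had no count in at least 1 library of each group and up to 631 counts in others, so that the counts of a single copy ranged that far within a group.

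The subfamilies with the smallest p on the lower side were all Lx, and their size depended on WT-nt 1. Lx2 had 8129, 9492 and 10323 CPM (lowest, median and highest) in TS-nt and 9421, 10867 and 33480 in WT-nt libraries. The highest of these was WT-nt 1, and the highest of the other WT-nt libraries was 11237. The log2 fold change was -0.46 (SE 0.15, edgeR adjusted p = 0.123), and -0.14 without WT-nt 1. Lx3A, Lx4B, Lx4A and Lx8b had log2 fold changes of -0.40, -0.31, -0.22 and -0.14, which became -0.11, -0.14, -0.085 and -0.072 without that library. All 6 subfamilies of Lx and Lx2, all 6 of Lx3 and Lx4 and all 4 of Lx5 and Lx6 had a log2 fold change below 0. Without WT-nt 1 this held for all of these but Lx2B2 (0.0100), and Lx2A1 went from -0.44 to -0.0033.

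Each of the 6 young subfamilies had a mean below that of WT-nt mice, and none passed. L1Md_F2, the young subfamily with the most counts, had 58023, 60926 and 62862 CPM in TS-nt and 61611, 63992 and 131028 in WT-nt libraries. Of the TS-nt libraries, 7 of 9 were below all WT-nt libraries, and the log2 fold change was -0.23 (SE 0.092, edgeR adjusted p = 0.123), or -0.065 without WT-nt 1. L1Md_T had 22639, 23512 and 29872 CPM in TS-nt and 22515, 24406 and 117418 in WT-nt libraries, with the 2 highest values those of TS-nt 4 and WT-nt 1 in their groups. Its log2 fold change was -0.52 (SE 0.48, edgeR adjusted p = 0.538), and -0.012 without WT-nt 1. Within L1Md_T, 24.3% of the counts were on L1Md_T_dup9904. On this element WT-nt 1 had 182971 CPM of tested elements (49571 counts), and the other libraries of its group had between 0 and 4348 CPM. L1Md_A (-0.23), L1Md_F3 (-0.25), L1Md_Gf (-0.26) and L1Md_F (-0.093) had edgeR adjusted p-values between 0.204 and 0.728. Without WT-nt 1 the first 2 were at -0.035 and -0.064 and the last 2 above 0 (0.038 and 0.15).

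**Figure D4:**
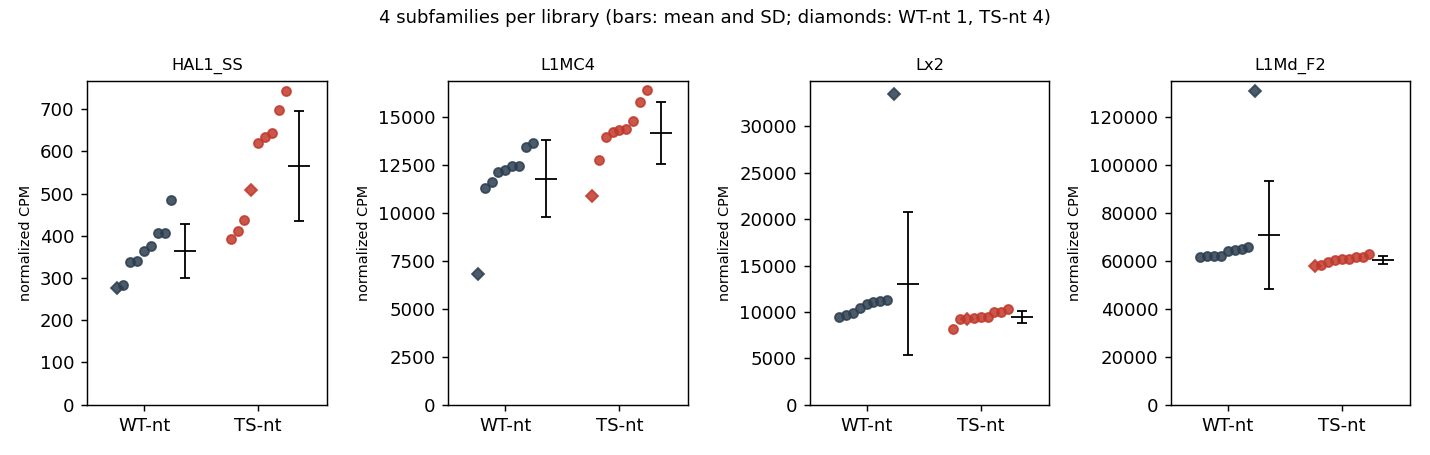
Normalized CPM (vertical axes, each on its own scale) of selected subfamilies in each of the 18 libraries; points are libraries, bars mean and SD of the 9 libraries of a group, and diamonds mark WT-nt 1 and TS-nt 4. HAL1_SS averaged 565 CPM in TS-nt and 364 in WT-nt mice, while WT-nt 1 lies far above the other libraries for Lx2 and L1Md_F2 (33480 and 131028 CPM).

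At the level of single elements, no difference passed the test. Of 5416 elements tested with edgeR, 0 (0%) had an adjusted p below 0.1 and 82 (1.51%) an unadjusted p below 0.05, 64 higher (1.18%) and 18 lower (0.332%) in TS-nt mice. With DESeq2 there were 0 calls and 207 elements with an unadjusted p below 0.05. This count held for elements that passed the filter on low counts. When every element with at least 10 counts was tested, edgeR called 38700 of 186107 (20.8%), 11574 higher and 27126 lower, and the called elements had a median of 15 counts in the 18 libraries and a count in a median of 1 library, so that most of these calls rested on 1 library. Of the 5416 elements, 7 were called in that test. The spread between mice was large, with a common coefficient of variation of 0.744 for elements and 0.227 for subfamilies. Among the elements tested, 955 of 1446 old ones (66.0%) had a log2 fold change above 0 (median 0.16), beside 481 of 924 young ones (52.1%, median 0.030), 1600 of 3046 other ones (52.5%, median 0.028) and 56.1% of all (median 0.069). The median of old elements was the highest under each scaling and without WT-nt 1, but the directions of the young and other medians were not kept. Without WT-nt 1, 58.2% of old (median 0.078), 44.5% of young (median -0.048), 45.9% of other (median -0.043) and 49.0% of all elements were above 0. Likewise, with DESeq2 size factors the medians were 0.060 for old, -0.037 for young and -0.046 for other elements, and the split of the elements with p below 0.05 went from 64 higher and 18 lower to 45 higher and 70 lower. Old elements, 1446 of the 5416 tested, made up 28 of the 64 higher and 1 of the 18 lower elements, and with DESeq2 size factors 17 of 45 and 10 of 70.

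The elements with the most counts did not pass the test. In the old class, the single element with the most counts was L1MEd_dup2089. It had between 38174 and 135381 CPM of tested elements in TS-nt and between 596 and 321657 in WT-nt libraries. Its means were 70199 ± 26997 and 88256 ± 91666 (SD, n = 9 each; edgeR log2 fold change -0.33, SE 0.59, adjusted p = 0.999). In the class other it was Lx7_dup29483, with 33085 ± 4559 and 31969 ± 7554 CPM (SD, n = 9 each; log2 fold change 0.050, SE 0.17, edgeR adjusted p = 0.999). In the young class it was L1Md_T_dup9904, with medians of 1919 CPM in TS-nt and 1533 in WT-nt mice and the single high library described above. The 10 most abundant elements of a library together took 12.5% ± 2.58 of L1 counts in TS-nt and 12.1% ± 1.98 in WT-nt mice (SD, n = 9 each; exact permutation p = 0.716).

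Ordered by p, the leading elements that were higher in TS-nt mice were L1_Mm_dup4871 and Lx2A_dup118, described below, then Lx_dup7185, L1Md_F3_dup2624 and L1Md_F2_dup59906. L1Md_F3_dup2624 had 189 counts in all TS-nt and 66 in all WT-nt libraries, or 125 ± 68.5 vs. 40.3 ± 25.6 CPM (SD, n = 9 each), and a log2 fold change of 1.61 (SE 0.60, edgeR adjusted p = 0.999). Lx_dup7185 had 108 and 19 counts and a log2 fold change of 2.34 (SE 0.84, edgeR adjusted p = 0.999). Without WT-nt 2, which held most of the WT-nt counts of this element, its log2 fold change was 4.24 (edgeR adjusted p = 0.0378), the single call of an element when any library was left out. The others were Lx7_dup7435, Lx7_dup11598, L1VL4_dup4853, Lx8_dup48025 and Lx5_dup10277, with log2 fold changes between 1.08 and 2.20.

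On the lower side, the leading elements were L1Md_F2_dup19834, Lx9_dup40901, Lx2_dup4332, Lx3_Mus_dup1034 and L1_Mus3_dup45937. L1Md_F2_dup19834 had 24 counts in all TS-nt and 130 in all WT-nt libraries, 13.3 ± 16.9 vs. 85.6 ± 49.9 CPM (SD, n = 9 each), and a log2 fold change of -2.58 (SE 0.88, edgeR adjusted p = 0.999). Of the elements with more counts, Lx7_dup14701 had 1284 ± 289 CPM in TS-nt and 1940 ± 483 in WT-nt mice (SD, n = 9 each), which did not pass the test (log2 fold change -0.60, SE 0.25, edgeR adjusted p = 0.999). L1Md_F2_dup33566 had the largest of these log2 fold changes (-3.50, SE 1.48), which rested on WT-nt 1 with 4057 CPM where the WT-nt median was 18.3, and was -0.33 without that library. The remaining 3 were Lx4A_dup2907, L1_Mus3_dup43099 and L1MC1_dup3646, with log2 fold changes between -1.68 and -1.33.

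The study lists 9 elements for this comparison, 4 higher and 5 lower in TS-nt mice. They were chosen on these libraries, so that their direction is a description and not independent evidence. Of the 9, 6 passed the filter, 4 had an unadjusted edgeR p below 0.05 and 0 had an adjusted p below 0.1. By the exact permutation test of normalized CPM, 8 of the 9 had an unadjusted p below 0.05. Of the 114223 elements with at least 10 counts in the 18 libraries, 2846 did (2.49%, or 1.22% higher and 1.27% lower). Of the 5416 elements that passed the filter, 327 did, 218 higher and 109 lower. Since the 9 were chosen on these libraries, these rates do not measure an enrichment. The groups overlapped for each of the 9.

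Of the 4 higher elements, 2 lie in untranslated exons and 1 in an exon of a pseudogene. L1_Mm_dup4871, outside annotated genes on MMU16 but proximal to the extra segment (GRCm38 16:31386704-31387928, minus strand, 7571 bases from 1700007E05Rik), had 1134, 3055 and 4623 CPM in TS-nt and 480, 1632 and 2536 in WT-nt libraries. In 7 of 9 TS-nt libraries it was above all WT-nt libraries, with means of 3034 ± 986 and 1696 ± 607 CPM (SD, n = 9 each; log2 fold change 0.84, SE 0.25, edgeR adjusted p = 0.999). Lx2A_dup118, a stretch of 57 bases in an untranslated exon of Scrn3 on the same strand (GRCm38 2:73337473-73337529), had 100.4, 154 and 278 CPM in TS-nt and 0, 67.9 and 104 in WT-nt libraries. In 8 of 9 TS-nt libraries it was above all WT-nt libraries (162 ± 53.7 vs. 59.3 ± 33.3 CPM, SD, n = 9 each; log2 fold change 1.46, SE 0.50, edgeR adjusted p = 0.999). L1MA4_dup880 lies in an untranslated exon of Emc7, a subunit of the membrane protein complex of the endoplasmic reticulum, on the same strand (GRCm38 2:112471514-112471892). It had 888, 1427 and 1937 CPM in TS-nt and 240, 970 and 1511 in WT-nt libraries, with 4 of 9 TS-nt libraries above all WT-nt libraries (log2 fold change 0.59, SE 0.27, edgeR adjusted p = 0.999).

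L1Md_F2_dup59906 is the listed element inside the extra segment, and its sequence is shown because it lies almost whole in an exon of the pseudogene Gm21926. It lies at GRCm38 17:3111781-3112547 on the minus strand, and 758 of its bases are in an exon of Gm21926 on the same strand. The 300 bases at its 5′ end (chr17:3112248-3112547, GRCm38, minus strand), as in the GENCODE transcript, have a GC content of 43.3%.

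L1Md_F2_dup59906: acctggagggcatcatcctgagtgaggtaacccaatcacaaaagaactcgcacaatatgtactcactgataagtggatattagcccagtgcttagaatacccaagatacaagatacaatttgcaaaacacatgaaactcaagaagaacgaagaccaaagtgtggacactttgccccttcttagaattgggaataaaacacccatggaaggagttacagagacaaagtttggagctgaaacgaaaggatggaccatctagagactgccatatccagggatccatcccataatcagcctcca

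It had 939, 1902 and 2373 CPM in TS-nt and 402, 1219 and 1513 in WT-nt libraries. In 8 of 9 TS-nt libraries it was above all WT-nt libraries, and the lowest value of each group was that of the library apart in its L1 total. The means were 1846 ± 440 and 1110 ± 359 CPM (SD, n = 9 each), a log2 fold change of 0.73 (SE 0.28, edgeR adjusted p = 0.999). Reads that stem from Gm21926 and from an L1 promoter cannot be told apart in these counts.

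Of the 5 lower elements, 4 are described, which lie in introns and had few counts. Lx8_dup23295 lies on the same strand in an intron of Ints14, which encodes a subunit of the Integrator complex (GRCm38 9:64971140-64971657). It had 2 counts in all TS-nt and 77 in all WT-nt libraries. Lx8_dup2917, in an intron of the nuclear pore gene Tpr on the opposite strand (GRCm38 1:150418170-150419163), had 12 and 79 counts, and 7 of 9 TS-nt libraries were below all WT-nt libraries. L1_Mus2_dup18345, in introns of Cdh12, a cadherin gene, and of the antisense gene Gm49685, both on the opposite strand (GRCm38 15:20551458-20554617), had 34.8 ± 45.0 vs. 82.8 ± 28.2 CPM (SD, n = 9 each). Lx7_dup14700, in an intron of the lincRNA gene A230057D06Rik on the opposite strand (GRCm38 7:61910864-61911288), had 37 and 84 counts, and 6 of 9 TS-nt libraries were below all WT-nt libraries. TS-nt 4 had the highest TS-nt value for L1_Mus2_dup18345 and Lx7_dup14700.

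Elements in the extra segment were looked at as a group, since the mice carry a further copy of it. The segment was taken as MMU16 from the start of Mrpl39 to the end and MMU17 from its start to the end of Pde10a, and 7 of the elements the study lists in any comparison lie in it. Their summed CPM was between 2038 and 3589 in TS-nt (3074 ± 478) and between 878 and 2586 in WT-nt libraries (1886 ± 463; SD, n = 9 each). All 7 had a higher mean in TS-nt mice, and 4 passed the filter with 0 called. For Lx4A_dup9528 the means were 14.7 and 9.02 CPM (exact permutation p = 0.677). Of all 5416 tested elements, 56.1% had a log2 fold change above 0. Since the 7 were listed for differences that involve these libraries, their count is a description. L1Md_F2_dup59906 had most of these counts.

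The other 6 lie in genes of MMU16, among them Dscam, Kcnj6 and Ttc3, which belong to the genes in extra copy in Down syndrome. L1ME3Cz_dup944, in an untranslated exon of Ttc3, a ubiquitin ligase gene, on the same strand (GRCm38 16:94395910-94396630), had 198, 284 and 458 CPM in TS-nt and 0, 210 and 253 in WT-nt libraries, with 8 of 9 TS-nt libraries above all WT-nt libraries (log2 fold change 0.76, SE 0.40, edgeR adjusted p = 0.999). L1Md_F_dup3732, in an exon of B230307C23Rik on the opposite strand and inside A630089N07Rik on the same strand (GRCm38 16:98015457-98016275), had 518 ± 173 vs. 338 ± 124 CPM (SD, n = 9 each; log2 fold change 0.61, SE 0.32, edgeR adjusted p = 0.999). L1MC1_dup5016, in introns of the antisense gene Gm41505 on the same strand and of the potassium channel gene Kcnj6 on the opposite strand (GRCm38 16:94750285-94751881), had 370 ± 138 vs. 245 ± 89.0 CPM (SD, n = 9 each; log2 fold change 0.59, SE 0.34, edgeR adjusted p = 0.999). The last 3, L1M2_dup16808, L1MEc_dup4826 and Lx4A_dup9528, overlap Dscam, a neuronal adhesion gene, and had few reads. They had 23, 13 and 27 counts in all TS-nt and 2, 3 and 22 in all WT-nt libraries, and the 22 were all in WT-nt 1.

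**Figure D5:**
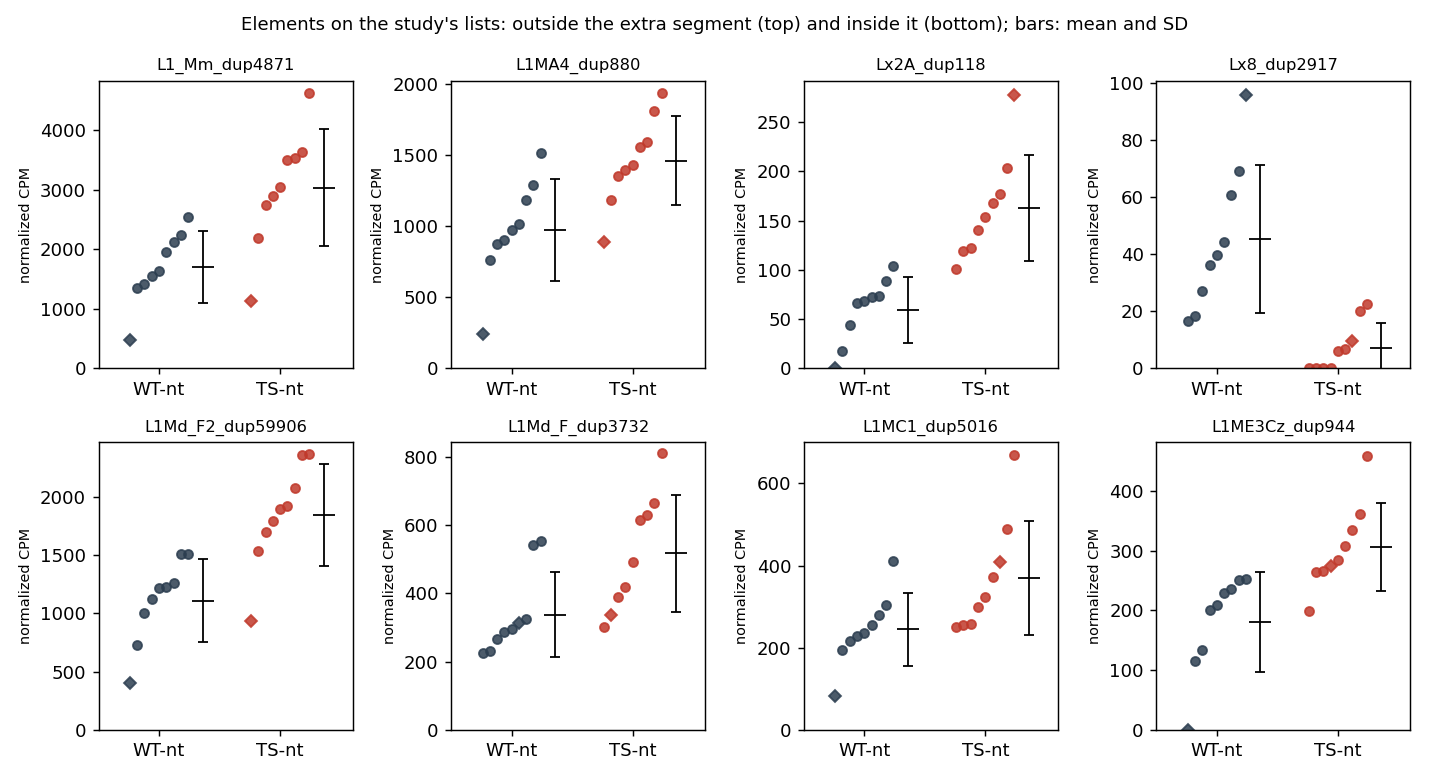
Normalized CPM (scaled to the counts on tested elements, vertical axes, each on its own scale) of elements the study lists for this comparison or in the extra segment, in each of the 18 libraries; points are libraries, bars mean and SD of the 9 libraries of a group, and diamonds mark WT-nt 1 and TS-nt 4. L1_Mm_dup4871 (3034 vs. 1696 CPM) and L1Md_F2_dup59906 (1846 vs. 1110 CPM) are higher in the mean of TS-nt mice with overlapping groups.

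The number of different elements with a count was compared at equal depth, since it rises with the number of reads. Each library was brought to 258311 counts, the lowest L1 total. TS-nt libraries then had 26098, 43656 and 86903 elements (lowest, median and highest) and WT-nt libraries 40468, 47582 and 68600. The highest TS-nt value was that of TS-nt 4, and the groups overlapped over most of their range. The means were 46334 ± 16642 and 50125 ± 9663 elements (SD, n = 9 each; exact permutation, adjusted p = 0.781 over 4 measures), and neither young (adjusted p = 0.781) nor old elements (adjusted p = 0.962) passed the exact permutation test. Without the libraries apart in L1 total, the difference was -9776 elements (exact permutation, adjusted p = 0.0507).

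The shares were set beside those of the same genotypes in hippocampus and in treated cortex. In hippocampus of non-treated mice, 8 of each genotype, the old share was 44.2% ± 2.87 in TS-nt and 43.3% ± 2.73 in WT-nt and the young share 11.3% ± 0.633 and 11.4% ± 0.587 (SD, n = 8 each; exact permutation, adjusted p = 0.584 for both). The difference between the genotype effects of the tissues, tested over mice with both tissues, did not pass (2.67 points for the old class, exact permutation, adjusted p = 0.494), and was 0.119 points without WT-nt 1 (exact permutation p = 0.880). In cortex of mice treated with lamivudine, an inhibitor of reverse transcriptase, at 3 mg/kg, the old share was 39.6% ± 3.23 in 13 trisomic and 40.2% ± 2.90 in 17 wild-type mice (SD; permutation p = 0.613). By the edgeR interaction test, no difference of the genotype effect with treatment passed (0 of 133 called, 28 with an unadjusted p below 0.05, lowest adjusted p = 0.181), and between treated groups 0 of 133 subfamilies were called and 8 (6.02%) had an unadjusted p below 0.05, as had 106 of 5416 elements (1.96%), of which 0 were called.

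Between treated trisomic and wild-type cortex, 47 of 90 old subfamilies had a log2 fold change above 0 (median 0.0021). So had 26 of 37 other ones (median 0.035) and 4 of 6 young ones (median 0.089). The lower direction of the other and young classes in non-treated cortex was thus not seen there. Over the 133 subfamilies, the log2 fold changes of non-treated and treated cortex had a Spearman correlation of -0.32. Values in hippocampus and treated cortex are given for some of the subfamilies and elements named above. HAL1_SS had a log2 fold change of 0.35 (SE 0.13) between treated trisomic and wild-type cortex and of 0.41 (SE 0.21) in hippocampus, neither of which passed (edgeR adjusted p = 0.406 and 0.543). L1MC4 had 0.082 (SE 0.075) in treated cortex and 0.22 (SE 0.060) in hippocampus, where it passed (edgeR adjusted p = 0.0604), 1 of 2 among 132 subfamilies tested there (1.52%). L1_Mm_dup4871 had 1227 ± 172 vs. 723 ± 186 CPM, scaled to the L1 total without TMM factors, in hippocampus of TS-nt and WT-nt mice (SD, n = 8 each) and 1342 ± 442 vs. 995 ± 329 in treated cortex (SD, n = 13 and 17). On the same scale, L1Md_F2_dup59906 had 1147 ± 211 vs. 687 ± 112 in hippocampus and 803 ± 231 vs. 646 ± 259 in treated cortex. Lx2A_dup118 had 102 ± 39.0 vs. 50.3 ± 40.5 in hippocampus and, in treated cortex, a lower mean in trisomic mice (51.8 ± 28.6 vs. 74.8 ± 83.5). L1MA4_dup880 had 971 ± 370 vs. 689 ± 162 in hippocampus and 611 ± 265 vs. 613 ± 204 in treated cortex. Of the lower elements described, L1_Mus2_dup18345 had 17.4 vs. 22.1 in hippocampus and 29.5 vs. 20.7 in treated cortex. Lx7_dup14700 had 4.36 vs. 10.5 and 11.1 vs. 13.8, Lx8_dup2917 12.2 vs. 16.5 and 7.22 vs. 7.37, and Lx8_dup23295 4.07 vs. 3.97 and 7.46 vs. 7.36. Cortex and hippocampus of non-treated animals share mice, while treated cortex is from other mice. L1_Mm_dup4871 and L1Md_F2_dup59906 are on the study's list for hippocampus as well. The values are given side by side without a test.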

How the data were processed

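L1 expression was measured by sequencing of total RNA, and only the table of raw counts per L1 element was used here. In the study's methods and processing notes, Trimmomatic 0.38 was used for trimming and HISAT2 2.1.0 for alignment to GRCm38/mm10, a read could keep up to 5 alignments, and Telescope then gave each read that fitted several L1 copies to the likeliest of them. The counts deposited by the authors are whole numbers without normalization. Reads of near-identical young copies are therefore uncertain between copies, and less so in subfamily sums. The strand setting of the counting and the version of Telescope are not given in the sources used here. Each label names 1 animal, while the methods mention pools of 3 samples per condition, so that libraries may be pools. The p-values measure the spread between these libraries.

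Groups were taken from the labels. Elements were filtered with filterByExpr (at least 10 counts, 15 in total), normalized with TMM and tested with edgeR 4.0.16 (quasi-likelihood, limma 3.58.1, R 4.3.3) in a model of the 48 cortex libraries in 4 groups, and counts summed per subfamily likewise. Benjamini-Hochberg adjusted p-values below 0.1 were called. The SE of an edgeR log2 fold change was derived from the test, as its absolute value divided by the square root of the F statistic. CPM of elements are scaled to the counts on tested elements and CPM of subfamilies to the L1 total, both with TMM factors. Shares and numbers of elements were compared with exact two-sided permutation tests over all splits (scipy 1.17.1, numpy 2.4.6 and pandas 2.3.3 in Python 3.11.15). There were 48620 splits for 9 against 9 libraries, and fewer where a group had fewer libraries. The 17 and 13 treated libraries were compared with a permutation test of random splits. Equal depth, in L1 counts, was the hypergeometric expectation. No interval of a single library is given. The L1 total of a library is its number of L1 counts and not its number of sequenced reads, which was not used here. The models were tested on simulated data with known changes.

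Named elements were the 10 with the smallest p in each direction, the listed ones, those of the extra segment, and the 3 with the most counts per class; named subfamilies were the 5 with the smallest p in each direction, those called, the L1Md subfamilies and the one with the most counts per class. Members, lists and tests were chosen with earlier results of these data known. Alternatives were DESeq2 1.42.0, its size factors, other filters, only the 18 libraries, a threshold of 0.05, other scales, and leaving out abundant elements, the libraries apart in L1 total, or each library. Shares of elements that did not pass the filter, and listed elements without WT-nt 1, were added after the data were seen. Positions are from the study's list and GENCODE (GRCm38). Gene counts were not used here, and 1 listed element is counted but not described here.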

Additional observations from a re-analysis of the deposited data

Results flagged for a closer look

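The libraries of each group were compared with each other in 136 sets of 9 values, and 57 times the gap of an end library to its neighbour was above Dixon's critical value for the range of the group. Chance gives this in about 1 of 20 sets. WT-nt 1 was the library 33 times, TS-nt 4 19 times and TS-nt 1, TS-nt 3 and WT-nt 2 the remaining times, so that these values of a library are not independent of each other.

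WT-nt 1 had the highest L1 total of its group (1165192 counts) and the highest shares of the young class (21.7%), L1Md_T (7.96%), L1Md_A (2.38%), L1Md_F (11.2%), L1_Mus and L1_Mm (12.1%), L1_Mur, L1VL and L1_Rod (7.001%), and Lx and Lx2 (7.62%). It had the lowest shares of the old class (25.4%), Lx7 (3.78%), Lx8, Lx9 and Lx10 (10.1%), HAL1 (0.386%), L1MA and L1MB (4.47%), L1MC and L1MD (3.67%), L1M with a number (4.06%) and the subfamilies of no other lineage (0.356%). Of subfamilies, it was highest in CPM for L1Md_T (117418), L1Md_A (35114), L1Md_Gf (3235), L1Md_F (6574), L1Md_F2 (131028), L1Md_F3 (27075), Lx2 (33480), Lx8b (28109), Lx3A (14704), Lx4B (8192), Lx4A (15513) and L1MEd (113439), and lowest for L1MC4 (6843). Of elements, it was highest for L1Md_T_dup9904 (182971 CPM), L1MEd_dup2089 (321657 CPM) and Lx4A_dup9528 (81.2 CPM), and lowest for Lx7_dup29483 (13997 CPM).

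TS-nt 4 had the highest L1 total of its group (763030 counts), the most elements with a count (132569) and the most elements at equal depth (86903 in all, 11861 young, 43834 other and 31208 old). Its shares were the highest of the young class (13.5%), L1Md_T (3.402%), L1_Mur, L1VL and L1_Rod (6.64%), L1MA and L1MB (9.94%) and L1M with a number (7.88%), and the lowest of Lx7 (4.77%), L1ME (10.1%) and the 10 most abundant elements (5.99%). It was highest for the subfamily L1Md_T (29872 CPM), lowest for Lx8 (47676 CPM), and highest for the elements L1_Mus2_dup18345 (144 CPM), Lx7_dup14700 (76.7 CPM) and L1Md_T_dup9904 (13897 CPM). TS-nt 1 was highest for L1M5 (22352 CPM), L1MEd (85704 CPM) and L1MEd_dup2089 (135381 CPM), TS-nt 3 for Lx8_dup23295 (6.80 CPM) and WT-nt 2 for L1MEc_dup4826 (12.2 CPM). What set these libraries apart was not tested.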

How the results depend on the processing

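The filter decided the number of single elements called: 38700 of 186107 elements with at least 10 counts and 47277 of 350407 without a filter, where 0 of 5416 were called after it. Of the 38700, 36320 (93.9%) had counts in at most 3 of the 18 libraries. The single-element count was 0 with DESeq2, its size factors, only the 18 libraries (of 2464 tested) and without the libraries apart in L1 total, and between 0 and 1 when single libraries were left out. Subfamilies called were 20 with DESeq2, 0 at an adjusted p below 0.05, 0 without the libraries apart and 0 of 129 without the most abundant element of each subfamily. They were between 0 and 24 when single libraries were left out: 0 without TS-nt 1, 2, 3, 8 or 9 or WT-nt 1, 7, 8 or 9, 17 without WT-nt 6, 22 without WT-nt 3 and 24 without WT-nt 5.

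For class shares, the difference of the class other turned to 1.07 among elements that passed the filter, where young (-1.49) and old (0.416) no longer passed the test. Among elements that did not pass it, the young difference was -0.831 and did not pass. When single libraries were left out, the young difference was between -1.59 and -0.384 and was lost without TS-nt 1, 2, 3, 5, 6, 7, 8 or 9 or WT-nt 1. The other differences were between -2.21 and -1.47 and the old ones between 1.85 and 3.79, and both passed each time. Lineages called were 7 without the 10 most abundant elements and between 0 and 4 without single libraries, 0 without TS-nt 1. L1Md_Gf turned to 0.00475 points without the libraries apart (-0.0147 to 0.00281 without single libraries), Lx7 to -0.00469 without the 10 most abundant elements (-0.0178 to 0.229), and L1_Mur, L1VL and L1_Rod had -0.395 to 0.136, each reversed without WT-nt 1. At equal depth, the difference was -9776 elements without the libraries apart and between -8862 (without TS-nt 4, where it passed) and -1261 without single libraries. Old elements had 28.0 more at the lower depth tried (25831 counts), and -2168 to 756 without single libraries. The 10 most abundant elements took 1.56 points more without the libraries apart, and -0.0177 (without WT-nt 9) to 1.24 without single libraries.

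Some log2 fold changes changed sign with the setting. L1Md_T_dup9904 had -2.76 (SE 1.54, edgeR adjusted p = 0.999) with all libraries. It had 0.074 with DESeq2, 0.14 without the libraries apart and -3.51 to 0.90 without single libraries. Lx7_dup29483 had -0.061 with DESeq2 and -0.061 with its size factors, -0.0035 with the 18 libraries, -0.010 without the libraries apart and -0.042 to 0.11 without single ones. Lx_dup18222 had -0.083, -0.083 and -0.018 in the first 3 of these and -0.043 to 0.12, Lx3B_dup3459 -0.12 without the libraries apart and -0.30 to 0.30, and L1MEd_dup2089 0.16 with DESeq2, 0.31 without the libraries apart, 0.065 without a filter and -0.49 to 0.25. Without the libraries apart, the subfamilies L1Md_Gf, L1Md_F and L1MEd had 0.081, 0.16 and 0.41 (-0.33 to 0.038, -0.14 to 0.15 and -0.23 to 0.31 without single libraries), and L1MEd 0.15 without its most abundant element. HAL1_SS had 0.58 to 0.70 without single libraries.

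Between TS-nt and WT-nt mice, no paired analysis was possible because the labels give no replicate numbers and each mouse has 1 genotype. The labels do give animal numbers, by which cortex and hippocampus libraries of a mouse were paired for the comparison of the tissues. The number of L1 counts limits single elements, of which 5416 of 350407 were tested. The share of L1 reads in all reads was not analysed here.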
